A study of Mus musculus with 6 samples.

Results

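The genes described here are 47 translation initiation and elongation factors, with the kinases, phosphatase subunit and binding proteins that regulate them. They were given as a list of gene symbols. All 47 were found among the 43271 Ensembl identifiers of the count table, and all passed the filter on low counts, which left 14101 genes. RNA was sequenced from primary microvascular endothelial cells of the brain of wild-type C57BL/6 mice, which line the vessels of the blood-brain barrier. Confluent cultures received dolutegravir (DTG), a drug that blocks the integrase of HIV, at 5000 ng/ml for 24 h (3 libraries), or its vehicle dimethyl sulfoxide (DMSO, 3 libraries). All cells were between passages 2 and 6, in medium with 5% serum. Library names also carry a tag, P4 or P5, that the labels do not define: DTG replicates 2 and 3 and DMSO replicate 1 are tagged P4, and DTG replicate 1 and DMSO replicates 2 and 3 are tagged P5. The names hold a number as well, with no meaning given. DMSO replicates 1 and 2 share the number 1, and DTG replicates 1 and 2 share the number 2. Replicate 3 of each group has the number 3. Libraries of a group with the same number may share a source, and each group may then hold fewer than 3 independent units. Whether replicates were separate cultures is not stated, so the tests measure the spread between libraries, which may be technical.

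Protein synthesis begins when eIF2 carries the initiator methionyl tRNA to the small ribosomal subunit. eIF1, eIF1A and eIF3 prepare that subunit, and eIF4E, eIF4G and eIF4A bring it to the capped end of an mRNA. After each start eIF2 must be recharged with GTP by eIF2B, and kinases that phosphorylate the alpha subunit of eIF2 block that step, which slows most translation while favouring mRNAs such as that of ATF4. Separately, the eIF4E-binding proteins hold eIF4E away from eIF4G unless the kinase mTOR phosphorylates them. The elongation factors eEF1A and eEF2 then deliver aminoacyl tRNAs and move the ribosome along, and eEF2 kinase inhibits eEF2. Stress of the endoplasmic reticulum (ER), which the study's title names, acts on this machinery through PERK, the eIF2 kinase of the ER membrane.

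The libraries held between 51344169 and 56316335 counts with DTG and between 41162353 and 55998253 with DMSO, and each member had at least 541 counts in each library. On the first principal component DTG replicate 1 stood at -39.7, DTG replicates 2 and 3 at -55.0 and -53.6, and the DMSO libraries between 49.0 and 50.1. All 10 endothelial marker genes were detected, with a summed level of 6471 to 6785 CPM in DTG and 8832 to 9288 CPM in DMSO (CPM, counts per 1000000 of the scaled library). Of these genes 7 were lower in DTG, where 29.3% of all genes tested were lower. Cdh5, Flt1 and Esam did not pass. They averaged 2115, 419 and 563 CPM in DTG and 1874, 399 and 543 CPM in DMSO. The astrocyte markers summed to 203 to 249 CPM in DTG and 56.5 to 65.3 CPM in DMSO, nearly all of it Gja1, a gap junction gene, while the other 5 of 6 stayed below 1 CPM and Aqp4 had 0 counts. The microglial markers summed to 6.26 to 7.74 CPM in DTG and 23.6 to 29.5 CPM in DMSO, nearly all of it Tmem119, with P2ry12 at 0 counts. All 9 pericyte and smooth muscle markers were below 1 CPM in every library, with Rgs5 and Kcnj8 at 0 counts. The pericyte list still held 1 gene called higher, Pdgfrb, at 0.718 ± 0.188 CPM in DTG and 0.196 ± 0.0355 CPM in DMSO. The neuronal list summed to 2.21 to 6.04 CPM in DTG and 0.158 to 0.322 CPM in DMSO, nearly all of the DTG level being Tubb3 (4.59 ± 2.15 CPM in DTG and 0.103 ± 0.0135 CPM in DMSO), with Map2 at 0 counts. The fibroblast list summed to 7.76 to 8.68 CPM in DTG and 6.52 to 7.5 CPM in DMSO, with Col1a1 called higher at 0.842 ± 0.245 CPM in DTG and 0.435 ± 0.0817 CPM in DMSO. The oligodendrocyte list summed to 1.23 to 1.41 CPM in DTG and 1.57 to 1.87 CPM in DMSO, with Mog, Olig1 and Olig2 at 0 counts, and the epithelial markers stayed below 1 CPM, with Epcam at 0 counts. The part of these differences in the results was not tested, and fewer cells of a type and less RNA per cell cannot be told apart in bulk samples.

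Most translation factor genes were higher after DTG. Of the 47 members, 30 were higher (63.8%), 3 were lower (6.38%) and 14 did not pass (edgeR quasi-likelihood test, Benjamini-Hochberg adjusted p below 0.05). Among all 14101 genes tested 27.4% were higher and 29.3% were lower, together 56.7%. The median log2 fold change of DTG over DMSO was 0.33 for the members and -0.01 for all genes tested. The members' median was 0.23 with upper-quartile factors and 0.15 with library-size scaling. Eif4ebp1, Eif1a, Eif2s2, Eif6 and Eif2b3 were higher by 1 log2 unit or more, 10.6% of the members, where 6.28% of all genes were. The members together took 2.31%, 2.47% and 2.46% of all counts in the DTG libraries and 2.26%, 2.23% and 2.13% in the DMSO libraries, so each DTG library lay above each DMSO library as a share of library size. The split of the calls depended in part on the scaling: 90.9% of the calls among members were higher with TMM factors, 80.0% with upper-quartile factors (24 higher, 6 lower) and 75.0% with library size alone (21 higher, 7 lower). Over all genes these shares were 48.3%, 38.2% and 30.7%. With library size alone 18.0% of all genes were higher and 40.6% lower, and the median of all genes moved by -0.17 log2.

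**Figure D1:**
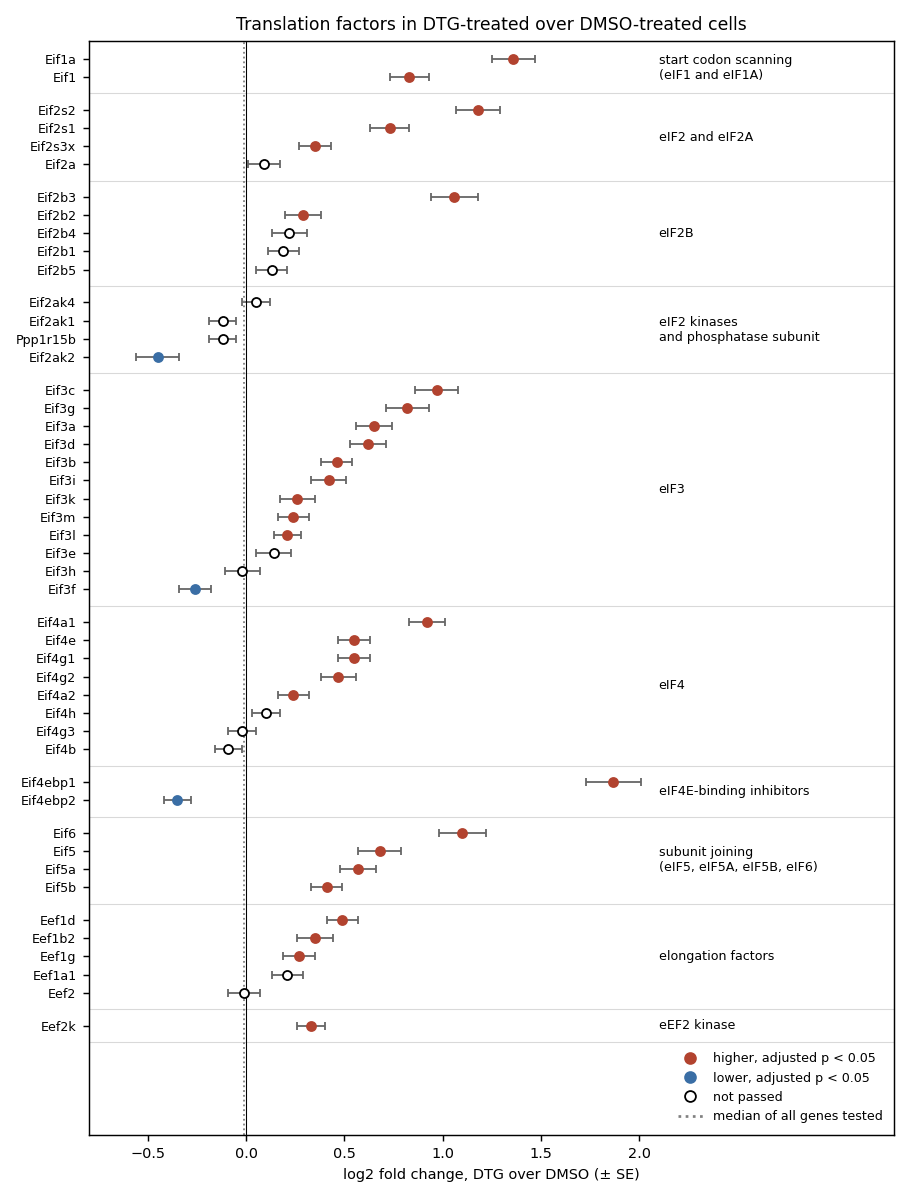
Log2 fold change of DTG over DMSO (horizontal axis, error bars are the standard error of the fit over 3 libraries a group) for the 47 members, grouped by role, with filled points for genes that passed and a dotted line at the median of all genes tested. Eif4ebp1 stands furthest right at 1.87, while the eIF2 kinases and phosphatase subunit lie between -0.45 and 0.05.

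The libraries of a group were not equally far from the other group. In 25 of the 30 members that were higher, DTG replicate 1 was the lowest of the 3 DTG libraries, as it was in 72.9% of all genes that were higher. In all 30 every DTG library still lay above every DMSO library. In 35 of the 47 members the DTG libraries lay wholly above and in 6 wholly below the DMSO libraries, 41 in all, where 31.1% of all genes tested lay wholly above and 33.1% wholly below, 64.2% in all. The change was larger within the P4 than within the P5 libraries in 25 of the 30, a count not made over all genes. DTG replicate 1 is the only DTG library tagged P5, so the tag and that library cannot be told apart here. A treatment by tag interaction passed for 0 of 14101 genes in edgeR, with 1351 genes (9.58%) at an unadjusted p below 0.05. Among the members 8 had such an unadjusted p, and the smallest adjusted p was 0.418.

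Both factors that keep the scanning small subunit open until it meets a start codon were higher, as were 27.4% of all genes tested. Eif1a, which encodes eIF1A, had 93.9, 121 and 119 CPM in DTG and 39.9, 42.2 and 48.3 CPM in DMSO. That is a log2 change of 1.36 ± 0.11 (SE, adjusted p = 6.35e-06), the second largest among the members, with no overlap between groups. Eif1, whose product guards the stringency of start codon choice, had 511, 668 and 649 CPM in DTG and 332, 357 and 341 CPM in DMSO (log2 change 0.83 ± 0.10, adjusted p = 8.93e-05). Its groups did not overlap either, and DTG replicate 1 was the lowest of the DTG libraries in both genes. The transcript of Eif1 shares at least 95% identity over 300 bases or more with 12 annotated pseudogenes, for which no counts were found. A pseudogene absent from the count table would also show none. The transcript of Eif1 shares as much with a transcript of Emd, whose counts came to 13.763% of those of Eif1. How shared reads were handled is not known, so the count of Eif1 stays uncertain.

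The genes of the 3 subunits of eIF2 were all higher, by unequal amounts, where 27.4% of all genes tested were higher. Eif2s2, the beta subunit, had 278, 327 and 352 CPM in DTG and 127, 138 and 157 CPM in DMSO (log2 change 1.18 ± 0.11, adjusted p = 1.21e-05). Eif2s1, the alpha subunit on which the eIF2 kinases act, had 132, 159 and 158 CPM in DTG and 84.6, 87.1 and 99.4 CPM in DMSO (log2 change 0.73 ± 0.10, adjusted p = 0.00013). In both genes the groups were separated. Eif2s3x, the gamma subunit that binds GTP and the tRNA, averaged 301 ± 23.3 CPM in DTG and 236 ± 11.6 CPM in DMSO (SD, n = 3 each; log2 change 0.35 ± 0.08, adjusted p = 0.00445). With library-size scaling Eif2s3x did not pass, at adjusted p = 0.0728, the top of its range of 0.000216 to 0.0728 in 16 alternatives.

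Ratios within a library do not move with the scaling. The ratio of Eif2s2 to Eif2s3x was 1.01, 1.02 and 1.13 in DTG and 0.555, 0.599 and 0.63 in DMSO. That of Eif2s1 to Eif2s3x was 0.482, 0.498 and 0.511 in DTG and 0.369, 0.378 and 0.398 in DMSO. In both ratios each DTG library exceeded each DMSO library. Per kilobase of the longest coding transcript, the levels of the beta, alpha and gamma genes were 125, 44.0 and 82.6 CPM in DTG and 55.4, 26.5 and 64.8 CPM in DMSO, so the beta gene stood above the gamma gene in DTG and below it in DMSO. With the median coding transcript as length, the beta and gamma genes stood at 138 and 127 CPM per kilobase in DTG and at 60.9 and 99.6 in DMSO. Eif2a, which encodes eIF2A, a separate protein that can bring initiator tRNA without eIF2, averaged 60.6 ± 1.47 CPM in DTG and 56.8 ± 4.58 CPM in DMSO and did not pass (adjusted p = 0.334).

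Among the 5 subunits of the exchange factor eIF2B, the point at which phosphorylated eIF2 blocks initiation, Eif2b3 had the largest change. Eif2b3, the gamma subunit of the catalytic part, had 23.1, 30.1 and 27.1 CPM in DTG and 11.7, 14.2 and 12.5 CPM in DMSO (log2 change 1.06 ± 0.12, adjusted p = 4.47e-05). It was the lowest of the 5 per kilobase of the longest coding transcript in both groups, at 7.12 CPM per kilobase in DTG and 3.41 in DMSO. The highest by that length, Eif2b2, stood at 50.6 in DTG and 41.5 in DMSO. With the median coding transcript as length Eif2b3 was still the lowest, at 17.2 in DTG and 8.24 in DMSO. The highest was then Eif2b5, at 95.5 in DTG and 87.2 in DMSO. Eif2b5, the catalytic epsilon subunit, averaged 116 ± 7.22 CPM in DTG and 106 ± 2.91 CPM in DMSO and did not pass (log2 change 0.13 ± 0.08, adjusted p = 0.161).

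The regulatory subunits of eIF2B, which sense the phosphorylated alpha subunit, changed by less than Eif2b3. Eif2b2 (beta) averaged 81.2 ± 0.715 CPM in DTG and 66.5 ± 7.75 CPM in DMSO and passed (log2 change 0.29 ± 0.09, adjusted p = 0.0204), but not with upper-quartile or library-size scaling (adjusted p = 0.0946 and 0.303). Eif2b1 (alpha) and Eif2b4 (delta) differed by 0.19 ± 0.08 and 0.22 ± 0.09 log2 and just missed the threshold (adjusted p = 0.0601 and 0.0502), although in both the DTG libraries lay above the DMSO libraries. Without DTG replicate 1, Eif2b1 and Eif2b4 passed at adjusted p = 0.0178 and 0.0324, and Eif2b5 at 0.0199. Without DMSO replicate 2, Eif2b1 and Eif2b4 passed at 0.0352 and 0.0355. The number of eIF2B genes called higher was 2 of 5 with TMM, 4 with RLE factors and 1 with library size alone. The called share with TMM was 40.0%, below the 56.7% of all genes tested.

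Of the 3 listed eIF2 kinases, which leave out PERK, 1 was lower and the others did not pass. Among all genes tested 29.3% were lower. Eif2ak2, which encodes PKR, the interferon-induced kinase that senses double-stranded RNA, had 128, 98.8 and 108 CPM in DTG and 143, 145 and 168 CPM in DMSO. It had the lowest fold change of the members (log2 change -0.45 ± 0.11, adjusted p = 0.00505), with no overlap between groups, and was called lower in all 16 alternatives (adjusted p 0.000406 to 0.0338). Eif2ak4, the gene of the amino acid sensor GCN2, averaged 45.0 ± 1.53 CPM in DTG and 43.4 ± 0.125 CPM in DMSO (log2 change 0.05 ± 0.07, adjusted p = 0.565). Eif2ak1, the gene of the heme-regulated kinase HRI, averaged 69.4 ± 2.12 CPM in DTG and 75.6 ± 1.12 CPM in DMSO (log2 change -0.12 ± 0.07, adjusted p = 0.151).

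Ppp1r15b encodes CReP, the constitutive subunit that directs protein phosphatase 1 to eIF2, and it did not pass, at 116 ± 2.40 CPM in DTG and 126 ± 7.57 CPM in DMSO (log2 change -0.12 ± 0.07, adjusted p = 0.183). With library-size scaling Eif2ak1 and Ppp1r15b were called lower (adjusted p = 0.00375 and 0.0056), and with upper-quartile factors as well (0.0199 and 0.0269). Several genes of the same switch outside the list had larger changes. Ppp1r15a, which encodes GADD34, the stress-induced counterpart of CReP, had 299, 629.7 and 591 CPM in DTG and 47.7, 47.6 and 40.5 CPM in DMSO, 11.2-fold higher (log2 change 3.48 ± 0.29, adjusted p = 7.47e-05). Eif2ak3, the PERK gene, was 1.95-fold higher at 75.9 ± 8.74 CPM in DTG and 38.9 ± 0.807 CPM in DMSO (adjusted p = 1.62e-05). Dnajc3, whose product p58IPK restrains PERK and PKR, was 10.1-fold higher and Atf4 5.45-fold higher (adjusted p = 6.63e-09 and 3.24e-06).

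Of the 11 listed genes of the eIF2 switch outside the members 7 were higher and 1 was lower, with a median of 0.53 log2. That is 72.7% called, where 56.7% of all genes tested were. The lower gene was Gcn1l1, whose product activates GCN2 on ribosomes (log2 change -0.25 ± 0.08, adjusted p = 0.0203), and it is named here after its values were seen. Ddit3, the CHOP gene, had the largest change of that list, 4.91 ± 0.23 log2 (adjusted p = 1.7e-06). The ER chaperone gene Hspa5 stood at 13377 ± 2350 CPM in DTG and 720.2 ± 40.3 CPM in DMSO (adjusted p = 2.92e-08).

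**Figure D2:**
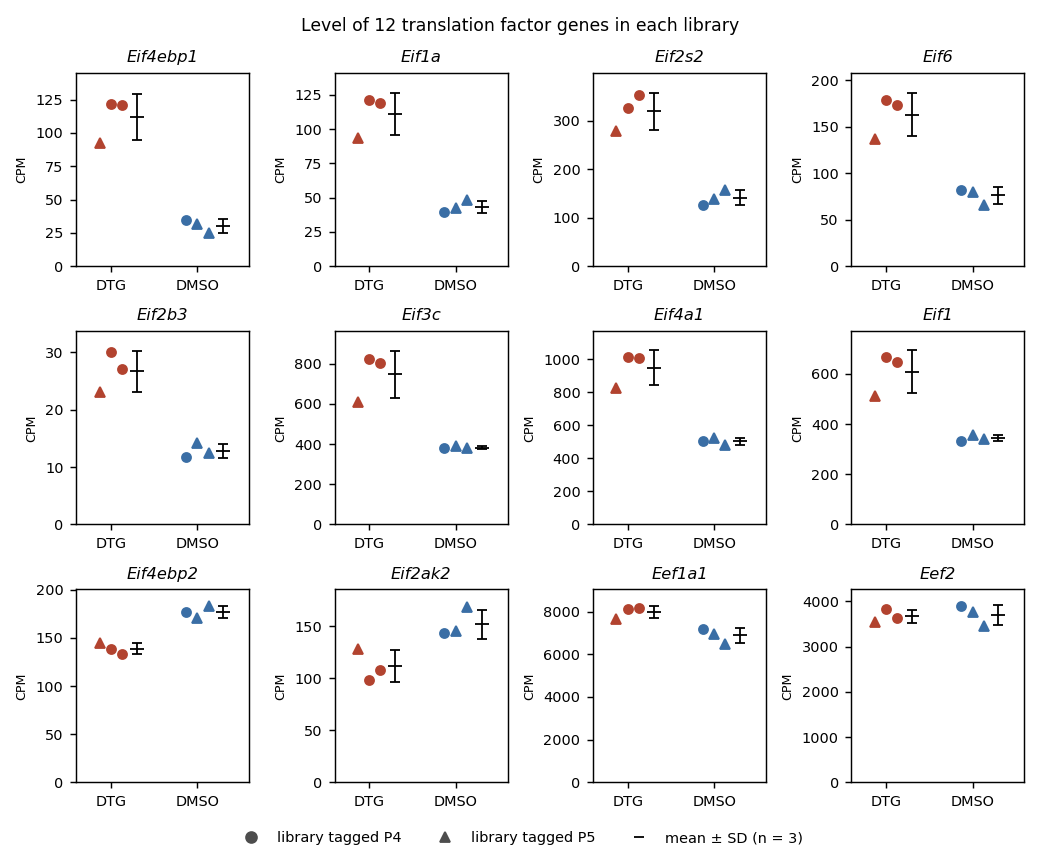
CPM (vertical axes, from 0) of 12 members in each DTG and DMSO library, with circles for libraries tagged P4, triangles for P5, and the mean ± SD of 3 libraries at the right of each group. Eif4ebp2 and Eif2ak2 lie lower in DTG, Eef2 overlaps between the groups, and in the other 9 genes each DTG library lies above each DMSO library.

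Of the 12 listed subunits of eIF3, the largest initiation factor and a scaffold on the small subunit, 9 were higher, 1 was lower and 2 did not pass, with a median of 0.34 log2. The called share was 83.3%, and that of all genes tested was 56.7%. Eif3c, which with Eif3a forms the centre of the complex, changed most, with 610.3, 825 and 806 CPM in DTG and 380, 389.6 and 378 CPM in DMSO (log2 change 0.97 ± 0.11, adjusted p = 5e-05). Eif3g, an RNA-binding subunit, had 101, 132 and 130.2 CPM in DTG and 69.5, 72.0 and 64.0 CPM in DMSO (log2 change 0.82 ± 0.11, adjusted p = 0.000109). Eif3a had 701, 805 and 799 CPM in DTG and 476, 462 and 531 CPM in DMSO (log2 change 0.65 ± 0.09, adjusted p = 0.000153). In each of these the groups were separated, with DTG replicate 1 the lowest DTG library.

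Eif3d, a subunit that can itself bind the cap of some mRNAs, had 212, 262 and 256 CPM in DTG and 162, 162 and 149.8 CPM in DMSO (log2 change 0.62 ± 0.09, adjusted p = 0.000279). Eif3b and Eif3i, which form a module with Eif3g, were higher by 0.46 ± 0.08 and 0.42 ± 0.09 log2 (adjusted p = 0.000943 and 0.00229). Eif3f averaged 183 ± 11.2 CPM in DTG and 219 ± 14.1 CPM in DMSO and was lower (log2 change -0.26 ± 0.08, adjusted p = 0.0184). That call was lost without DTG replicate 1 or 3 (adjusted p = 0.0623 and 0.0874) and without DMSO replicate 1 or 2 (0.0644 and 0.0667). Eif3h, its partner in the complex, averaged 189 ± 8.79 CPM in DTG and 191 ± 19.6 CPM in DMSO (adjusted p = 0.873), and Eif3e 180.1 ± 12.8 CPM in DTG and 164 ± 13.9 CPM in DMSO (adjusted p = 0.204).

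Eif3k, Eif3l and Eif3m were called higher by 0.26 ± 0.09, 0.21 ± 0.07 and 0.24 ± 0.08 log2 (adjusted p = 0.0275, 0.0287 and 0.0219). With library-size scaling they did not pass (adjusted p = 0.424, 0.675 and 0.442). Without DTG replicate 3 they had adjusted p = 0.0518, 0.0564 and 0.0725. Without DTG replicate 2, Eif3k and Eif3l had 0.0571 and 0.0732, and without DMSO replicate 1, Eif3l and Eif3m had 0.08 and 0.0913. With the replicate block Eif3l had adjusted p = 0.0647. The number of eIF3 genes called higher was 6 of 12 with library-size and with upper-quartile scaling. Per kilobase of the longest coding transcript, the 12 genes spanned 70.8 CPM (Eif3i) to 221 CPM (Eif3c) in DTG and 52.8 CPM (Eif3i) to 148 CPM (Eif3h) in DMSO, a ratio of highest to lowest of 3.12 in DTG and 2.80 in DMSO. With the median coding transcript as length the lowest gene was Eif3f in DTG and Eif3g in DMSO, Eif3c was the highest in both, and the ratio was 4.78 in DTG and 2.85 in DMSO.

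The promoters of the genes of the cap-binding complex eIF4F are shown because Eif4e, Eif4g1 and Eif4a1 all hold the E-box CACGTG, a palindrome bound by MYC, MAX, USF and related factors. That of Eef2, which holds it too and whose level did not pass, stands beside them. Each is the 250 bases before the RefSeq start on GRCm38.p6, written 5′ to 3′ in lower case with the E-box in capitals. Eif4e is at chr3:138527018-138527267, plus strand, Eif4g1 at chr16:20672477-20672726, plus strand, Eif4a1 at chr11:69672424-69672673, minus strand, and Eef2 at chr10:81176381-81176630, plus strand.
Eif4e: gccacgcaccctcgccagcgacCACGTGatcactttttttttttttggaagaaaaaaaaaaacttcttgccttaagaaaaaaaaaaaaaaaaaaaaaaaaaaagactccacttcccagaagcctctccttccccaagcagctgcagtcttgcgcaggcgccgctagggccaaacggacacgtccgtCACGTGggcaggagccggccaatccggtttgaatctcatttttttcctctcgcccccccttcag
Eif4g1: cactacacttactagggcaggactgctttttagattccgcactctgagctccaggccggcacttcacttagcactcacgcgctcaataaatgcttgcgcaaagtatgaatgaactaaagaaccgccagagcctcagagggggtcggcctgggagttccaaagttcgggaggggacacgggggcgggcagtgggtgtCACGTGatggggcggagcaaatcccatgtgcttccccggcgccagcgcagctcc
Eif4a1: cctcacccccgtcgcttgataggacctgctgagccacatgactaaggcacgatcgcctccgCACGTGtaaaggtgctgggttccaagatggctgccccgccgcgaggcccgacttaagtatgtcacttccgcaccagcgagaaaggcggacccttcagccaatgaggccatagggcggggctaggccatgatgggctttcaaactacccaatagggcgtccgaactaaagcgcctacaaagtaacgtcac
Eef2: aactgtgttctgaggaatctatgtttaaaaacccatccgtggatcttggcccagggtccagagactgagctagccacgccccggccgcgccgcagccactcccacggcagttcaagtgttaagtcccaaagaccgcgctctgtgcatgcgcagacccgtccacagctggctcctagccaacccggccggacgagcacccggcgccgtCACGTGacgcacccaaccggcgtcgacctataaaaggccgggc

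Eif4e holds the E-box 228 and 64 bases before the start, Eif4g1 at 54 bases (and again 15 after it), Eif4a1 at 189 bases and Eef2 at 43 bases. RefSeq promoters were matched for 36 of the 47 members, and 10 of these (27.8%) held CACGTG on either strand between 250 bases before and 50 after the start. The motif was found in 8.09% of 27025 genes with a promoter and in 11.6% of the 10331 of them that were tested. Of the 10 members with the motif 7 were higher, with a median change of 0.44 log2, and of the 26 without it 15 were higher, with a median of 0.24 log2. Among the 10, Eif3f was called lower, and Eif4h and Eef2 did not pass. The same comparison between genes with and without the motif was not made over all genes tested. In the 250 bases before the start alone, 9 members (25.0%) held it, with medians of 0.33 log2 with and 0.24 log2 without. The letters TGATGCAA of the CARE element, to which ATF4 can bind, were in none of the 36 windows (1.03% of all genes), nor was the ERSE element of the ER stress response (0.137% of all genes). TGACGTGG of the UPRE element was in that of Eif3a alone (0.714% of all genes). A match is a match of letters in this window and nothing more. An absence covers only the exact letters sought, in this window, for the 36 members with a promoter. CARE and ERSE were rare among all genes as well.

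Of the 8 listed eIF4 genes 5 were higher and 3 did not pass. The called share was 62.5%, near the 56.7% of all genes tested. All 3 genes of the eIF4F complex, which recognises the cap, were higher. Eif4a1, the RNA helicase that unwinds leader sequences, had 826, 1011 and 1006 CPM in DTG and 506, 522 and 478 CPM in DMSO (log2 change 0.92 ± 0.09, adjusted p = 2.58e-05). Eif4e, the cap-binding protein, had 103, 106 and 111 CPM in DTG and 68.1, 76.0 and 74.4 CPM in DMSO (log2 change 0.55 ± 0.08, adjusted p = 0.000174). Eif4g1, the scaffold that joins them, had 941, 1062 and 1020.4 CPM in DTG and 707, 677 and 687 CPM in DMSO (log2 change 0.55 ± 0.08, adjusted p = 0.000202). The groups were separated in each, and none of the 16 alternatives changed these calls.

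Eif4a2, the second helicase gene, averaged 656 ± 7.96 CPM in DTG and 556 ± 42.7 CPM in DMSO (log2 change 0.24 ± 0.08, adjusted p = 0.0258). This call was lost without DTG replicate 3 (adjusted p = 0.0684), without DMSO replicate 1 (0.106), with the replicate block (0.0568) and with upper-quartile or library-size scaling (0.135 and 0.471). The ratio of Eif4a1 to Eif4a2 was 1.27, 1.55 and 1.51 in DTG and 0.997, 0.91 and 0.813 in DMSO, each DTG value lying above each DMSO value. Eif4g2, which encodes DAP5, a relative of eIF4G that lacks the eIF4E site, averaged 1504 ± 90.0 CPM in DTG and 1087 ± 99.8 CPM in DMSO (log2 change 0.47 ± 0.09, adjusted p = 0.00148). Eif4g3, another eIF4G gene, averaged 93.7 ± 0.668 CPM in DTG and 94.9 ± 3.45 CPM in DMSO (adjusted p = 0.847).

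The helicase cofactors did not pass. Eif4b averaged 499 ± 5.78 CPM in DTG and 532 ± 1.33 CPM in DMSO (log2 change -0.09 ± 0.07, adjusted p = 0.275), and Eif4h 499 ± 8.57 CPM in DTG and 465 ± 19.6 CPM in DMSO (log2 change 0.10 ± 0.07, adjusted p = 0.24). Eif4b and Eif4g3 were called lower with library-size scaling (adjusted p = 0.00753 and 0.0396), and Eif4b with upper-quartile factors (0.0393).

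The genes of the eIF4E inhibitors moved in opposite directions. Eif4ebp1, which encodes 4E-BP1 and is known as a target gene of ATF4, had 92.3, 122 and 121 CPM in DTG and 34.6, 32.0 and 24.7 CPM in DMSO. This was the largest change of the 47 members, 3.67-fold (log2 change 1.87 ± 0.14, adjusted p = 4.33e-06), and it was 1.81 log2 among libraries tagged P4 and 1.71 log2 among those tagged P5. Eif4ebp2, its paralog, had 145, 139 and 133 CPM in DTG and 177, 171 and 183 CPM in DMSO (log2 change -0.35 ± 0.07, adjusted p = 0.00199). Neither call changed in any of the 16 alternatives.

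The ratio of Eif4ebp1 to Eif4ebp2 was 0.637, 0.878 and 0.91 in DTG and 0.196, 0.187 and 0.135 in DMSO. Per kilobase of the longest coding transcript, Eif4ebp1 stood at 56.0 ± 8.45 CPM and Eif4ebp2 at 24.0 ± 1.01 CPM in DTG, whereas in DMSO Eif4ebp1 stood at 15.2 ± 2.56 CPM and Eif4ebp2 at 30.6 ± 1.04 CPM (SD, n = 3 each). Eif4ebp1 was thus the higher of the pair in DTG and the lower in DMSO. With the median coding transcript as length Eif4ebp2 stood at 38.6 CPM per kilobase in DTG and 49.2 in DMSO, which keeps that order. The ratio of Eif4ebp1 to Eif4e, whose product it binds, was 0.9, 1.15 and 1.09 in DTG and 0.509, 0.421 and 0.332 in DMSO. These are ratios of RNA and hold no measure of phosphorylation.

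**Figure D3:**
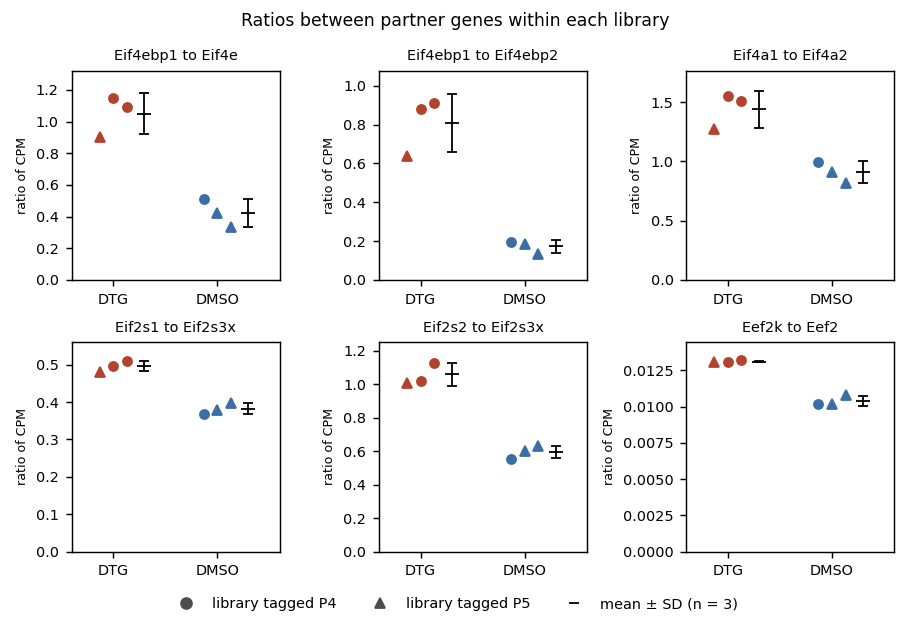
Ratio of the CPM of partner genes within each library (vertical axes, from 0), for DTG and DMSO libraries, with circles for P4, triangles for P5 and the mean ± SD of 3 libraries. In all 6 ratios each DTG library lies above each DMSO library, and Eif4ebp1 to Eif4ebp2 averages 0.808 in DTG and 0.172 in DMSO.

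All 4 genes grouped here under subunit joining were higher, and none of the 16 alternatives changed these calls. Among all genes tested 27.4% were higher. Eif6, which keeps free large subunits from joining small ones and is needed to make them, had 137, 179 and 173 CPM in DTG and 82.2, 79.8 and 66.1 CPM in DMSO (log2 change 1.10 ± 0.12, adjusted p = 3.36e-05). Eif5, which triggers GTP hydrolysis on eIF2 at the start codon, had 332, 391 and 388 CPM in DTG and 208, 220.3 and 266 CPM in DMSO (log2 change 0.68 ± 0.11, adjusted p = 0.000368). Eif5a, the hypusine-bearing factor that helps stalled ribosomes, had 430.2, 456 and 462 CPM in DTG and 314, 322 and 269.7 CPM in DMSO (log2 change 0.57 ± 0.09, adjusted p = 0.00028). The groups did not overlap in these genes, nor in Eif5b, the GTPase that joins the large subunit, which averaged 187 ± 3.17 CPM in DTG and 141 ± 12.9 CPM in DMSO (log2 change 0.41 ± 0.08, adjusted p = 0.00159).

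Of the 5 elongation factors 3 were higher, with a median of 0.27 log2 and a range of -0.01 to 0.49. The called share was 60.0%, near the 56.7% of all genes tested. Eef1a1, which carries aminoacyl tRNA to the ribosome, had 7652, 8137 and 8168 CPM in DTG and 7195, 6970.4 and 6485 CPM in DMSO. Its groups were separated, but its change narrowly missed the threshold (log2 change 0.21 ± 0.08, adjusted p = 0.05001). It passed with DESeq2, limma-voom, RLE factors and no robust estimation (adjusted p = 0.00858, 0.0344, 0.0373 and 0.0416) and without DTG replicate 1 (0.0133), and with library-size scaling it stood at 0.681. Eef1a1 has 8 annotated pseudogenes of at least 95% identity, for which no counts were found, as would hold if the count table lacked them. How reads shared with them were handled is not known, so its count stays uncertain.

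Eef2, the translocase and target of eEF2 kinase, had 3544, 3831 and 3645 CPM in DTG and 3892, 3758 and 3451 CPM in DMSO, and the groups overlapped (log2 change -0.01 ± 0.08, adjusted p = 0.925). Among the subunits of the exchange factor eEF1B, which recharges eEF1A, Eef1d changed most, with 163, 181 and 171 CPM in DTG and 128, 125 and 112 CPM in DMSO (log2 change 0.49 ± 0.08, adjusted p = 0.00053). Eef1b2 was higher by 0.35 ± 0.09 and Eef1g by 0.27 ± 0.08 log2 (adjusted p = 0.00753 and 0.0166), and both calls were lost with library-size scaling (0.111 and 0.312). Of the 5 genes, Eef1d alone was called higher under that scaling.

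Eef2k, the gene of the kinase that inhibits eEF2, had 46.5, 50.2 and 48.0 CPM in DTG and 39.8, 38.3 and 37.4 CPM in DMSO (log2 change 0.33 ± 0.07, adjusted p = 0.00361). Its ratio to Eef2 was 0.0131, 0.0131 and 0.0132 in DTG and 0.0102, 0.0102 and 0.0108 in DMSO, so the groups were separated on a measure free of scaling. With library-size scaling the change of Eef2k itself did not pass (adjusted p = 0.0956).

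Other translation genes were taken from lists by function. Their counts stand beside 27.4% of all genes tested that were higher and 29.3% that were lower. Of 25 other initiation factors and partners of eIF4E or of the poly(A)-binding protein, 14 were higher and 2 were lower, with a median of 0.23 log2. Library-size scaling left 9 higher and 3 lower, with a median of 0.06 log2, and upper-quartile factors 9 and 3, with a median of 0.13 log2. Pdcd4, whose product inhibits the eIF4A helicase, had 39.5, 40.7 and 42.9 CPM in DTG and 82.5, 75.9 and 84.8 CPM in DMSO (log2 change -0.98 ± 0.08, adjusted p = 4.43e-06). Bzw1, which encodes a relative of eIF5, was higher by 0.55 ± 0.09 log2 and Denr, a factor of ribosome recycling and reinitiation, by 0.48 ± 0.07 log2 (adjusted p = 0.00036 and 0.000245).

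Of 17 tested genes of other elongation, release and recycling factors 13 were higher and 1 was lower, with a median of 0.54 log2. Eef1e1, which encodes a scaffold protein of the tRNA synthetase complex, was 2.37-fold higher, at 16.2 ± 1.74 CPM in DTG and 6.82 ± 0.305 CPM in DMSO. Gtpbp2, linked to the rescue of stalled ribosomes, was 2.20-fold higher, at 195 ± 27.3 CPM in DTG and 88.5 ± 8.67 CPM in DMSO. Dnajc21, a factor of large subunit maturation, was 1.92-fold higher, at 31.3 ± 3.66 CPM in DTG and 16.3 ± 1.11 CPM in DMSO, and all of these passed (adjusted p = 9.41e-06, 2.09e-05 and 4.4e-05). Of 14 modifiers of the factors 9 were higher and the other 5 did not pass, with a median of 0.37 log2, and with library-size scaling 5 were higher, with a median of 0.20 log2. Among them Dph5 and Dph1, which build the diphthamide of eEF2, were higher by 1.03 ± 0.09 and 0.64 ± 0.10 log2, and Eef1akmt3, a lysine methyltransferase of eEF1A, stood at 3.19 ± 0.653 CPM in DTG and 0.308 ± 0.108 CPM in DMSO (adjusted p = 6.11e-06, 0.000331 and 5.52e-06).

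Of 25 mTORC1 and MNK genes, whose products act on the cap complex, 5 were higher and 8 were lower. That is 52.0% called, near the 56.7% of all genes tested. Their median was -0.11 log2, and it was -0.19 log2 within the P4 and 0.02 log2 within the P5 libraries. With library-size scaling 2 were higher and 17 lower. Sesn1 and Castor1, which relay low amino acids to mTORC1, fell by 1.92 ± 0.09 and 1.83 ± 0.12 log2 (adjusted p = 2.72e-07 and 1.74e-06). Sesn2, a sestrin known to be induced by ATF4, had 66.2, 129.7 and 121 CPM in DTG and 41.5, 37.4 and 33.3 CPM in DMSO (log2 change 1.50 ± 0.25, adjusted p = 0.00176). Rps6ka1, which encodes an S6 kinase of the RSK family, fell by 0.79 ± 0.08 log2 (adjusted p = 1.79e-05). Mtor itself averaged 57.1 ± 2.23 CPM in DTG and 61.5 ± 2.37 CPM in DMSO (adjusted p = 0.232), and Ddit4, an inhibitor gene of mTORC1, 385 ± 24.2 CPM in DTG and 418 ± 31.5 CPM in DMSO (adjusted p = 0.249).

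Of 11 factors of mitochondrial translation, a separate machinery, 3 were higher and 8 did not pass, with a median of 0.16 log2. That is 27.3% called, where 56.7% of all genes tested were. With library-size scaling 2 were lower and 9 did not pass. Mtrf1l, a mitochondrial release factor, averaged 9.79 ± 0.0912 CPM in DTG and 7.50 ± 0.146 CPM in DMSO (log2 change 0.38 ± 0.10, adjusted p = 0.00601). Gfm1 and Tufm, elongation factors of the mitochondrial ribosome, were called higher by 0.23 ± 0.08 and 0.20 ± 0.07 log2 (adjusted p = 0.0255 and 0.0386). Tufm did not pass in 9 of the alternatives, including without DTG replicate 2 or 3 (adjusted p = 0.0701 and 0.0512) and without DMSO replicate 2 or 3 (0.081 and 0.0549). Gfm1 did not pass in 4, including without DMSO replicate 1 (0.0985).

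**Figure D4:**
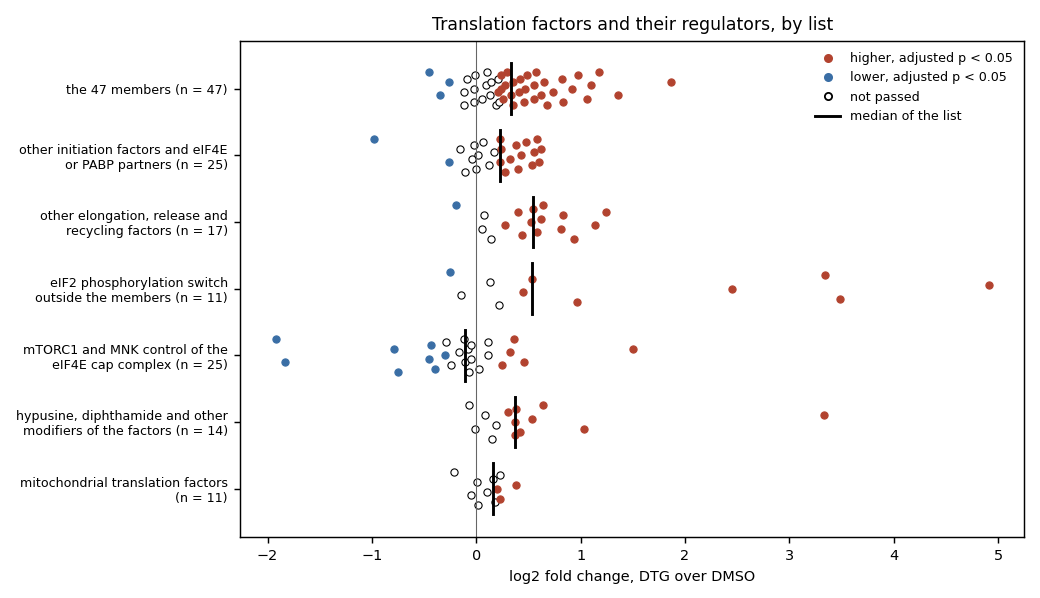
Log2 fold change of DTG over DMSO (horizontal axis) for each tested gene of the 47 members and of 6 lists of related genes, with filled points for genes that passed and a bar at the median of each list. The medians run from -0.11 for the mTORC1 and MNK genes to 0.54 for the other elongation, release and recycling factors, and the points beyond 2 are Atf4, Dnajc3, Ppp1r15a, Ddit3 and Eef1akmt3.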

How the data were processed

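RNA was sequenced in 3 DTG and 3 DMSO libraries, prepared per the labels' protocols from 2 µg of TRIzol-isolated RNA with a stranded poly(A) kit. The authors deposited whole-number counts for each Ensembl gene, with no normalization, in a table of 6 columns. Per the submitters' processing notes the build was GRCm39. The aligner, counter, strand setting and annotation were not given in the sources used here. One DTG column is spelled DIG, as is that sample's description, and was taken as DTG replicate 1. Symbols matched 38606 identifiers (89.2%), and those without one held 0.327% to 0.486% of a library's counts.

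The analysis used R 4.3.3 and edgeR 4.0.16: filterByExpr, TMM, and a robust quasi-likelihood F-test of DTG against DMSO over 14101 genes, Benjamini-Hochberg adjusted, threshold 0.05. Means carry the SD. Standard errors are the absolute log2 change over the root of F. Transcript lengths came from GENCODE M21 on GRCm38, matched by identifier, and no coordinate was carried between builds. Near-identical copies were sought with BLAST 2.17.0, and 14 members have 39 pseudogene copies, with no counts found for them. Copies absent from the count table were not told apart from copies with a count of 0. In counts simulated for DTG against DMSO (13913 genes), 200 genes were changed, far fewer than the 7990 called in the data. Of genes changed by 0.25, 0.5, 1 and 2 log2, 4.0%, 48.0%, 91.8% and 98.0% were recovered, and 9.1% of calls were false. These rates need not hold where so many genes change.

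The members and lists were chosen with earlier results of these data known. Named genes are all members, the 3 smallest p-values among those that passed in each related list, and 9 fixed genes. Alternatives were DESeq2 1.42.0, limma-voom (limma 3.58.1), other scalings, filters and thresholds, covariates, and leaving out each library.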

Additional observations from a re-analysis of the deposited data

How the results depend on the processing

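Of the 33 calls among the 47 members 23 held in all 16 alternatives with a test, and no called member changed direction in these. With library-size scaling 2536 of all genes were higher, and 7 members were lower (6 with upper-quartile factors). Under library-size scaling the median log2 change was 0.92 for eIF1 and eIF1A, 0.37 for eIF2 and eIF2A, 0.05 for eIF2B, -0.29 for the eIF2 kinases and phosphatase subunit, 0.17 for eIF3, 0.18 for eIF4, 0.59 for the eIF4E inhibitors, 0.45 for subunit joining and 0.10 for elongation. With upper-quartile factors it was 0.13 for eIF2B, -0.22 for the kinases, 0.25 for eIF3, 0.26 for eIF4 and 0.18 for elongation. A scaling factor moves every gene of a library alike. Within the P4 libraries the median was 1.29 for eIF1 and eIF1A, 0.68 for eIF2 and eIF2A, -0.06 for the kinases and 0.47 for eIF4. Within the P5 libraries it was 0.80, 0.35, -0.18 and 0.26 for the same roles, 0.28 for eIF3 and 0.50 for subunit joining. Leaving out each library gave 26 to 34 members higher and 2 to 3 lower, and medians of -0.15 to -0.07 for the kinases and of 0.31 to 0.41 for eIF4. The cause of the differences between tags and libraries was not tested. With 1 library left in an arm, no test was made within a tag.

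No pairing of the libraries by replicate number, which comes from the sample titles, was seen. Same-numbered libraries, which differ in tag, correlated at -0.282, 0.009 and -0.052 in their deviations from the group means. The other pairs of unlike tag stood at -0.156 and -0.161. Pairs of like tag stood higher, at 0.17 and 0.196 for P4 and at 0.105 and 0.17 for P5. The cause of this was not tested. Deviations from a group mean are tied to each other, so these correlations are not separate findings. Pairing by the number in the library names was not examined. With the tag as a term 30 members were higher and 3 lower. With the replicate number as a replicate block 28 members were higher and 3 lower, the calls of Eif3l and Eif4a2 being lost. Of all genes 3543 were higher and 3728 lower with that block. In simulated counts 4.0% of changes of 0.25 log2 were recovered, but only 200 genes were changed there, where 7990 passed in the data. That rate therefore does not describe the members, of which Eif3l passed at 0.21 log2. A member near that size that did not pass is still not shown to be unchanged.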

Other observations

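These groups were formed after the values were seen, so they carry no test. Their counts stand beside 27.4% of all genes tested that were higher and 29.3% that were lower. Among the members, the eIF3 core subunits shared with budding yeast (Eif3a, Eif3b, Eif3c, Eif3g and Eif3i) were higher in 5 of 5 cases, with a range of 0.42 to 0.97 log2 and a median of 0.65, and all 5 were also higher with library-size scaling. The loosely bound eIF3j, which has a yeast counterpart too, is encoded by Eif3j1 and Eif3j2, which are not members. Eif3j2 averaged 71.4 ± 3.61 CPM in DTG and 46.4 ± 9.24 CPM in DMSO and was higher (log2 change 0.62 ± 0.13, adjusted p = 0.0018), whereas Eif3j1 averaged 8.07 ± 0.785 CPM in DTG and 8.23 ± 1.64 CPM in DMSO and did not pass (log2 change -0.02 ± 0.15, adjusted p = 0.903). These genes are close paralogs, so their counts are uncertain where reads were split. Of the 7 other eIF3 members 4 were higher and 1 was lower, with a median of 0.21 log2. Library-size scaling left 1 of these higher and 1 lower.

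Members known to be encoded by TOP mRNAs, whose leader starts with a run of pyrimidines and whose translation depends on mTORC1, were Eef1a1, Eef1b2, Eef1d, Eef1g, Eef2, Eif3e, Eif3f, Eif3h and Eif4b. Of these 9 genes 3 were higher and 1 was lower, with a median of 0.14 log2 and a maximum of 0.49. Over all genes tested 27.4% were higher and 29.3% lower, with a median of -0.01 log2. Of the 38 other members 27 were higher and 2 lower, with a median of 0.42 log2. Library-size scaling gave medians of -0.03 for the TOP genes and 0.25 for the others, so the sign for the TOP genes depends on the scaling.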
